A study of Mus musculus with 5 samples.

Results

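The mouse has 6 genes for nuclear receptors of the retinoid class: Rara, Rarb and Rarg, which encode receptors for retinoic acid, and Rxra, Rxrb and Rxrg, which encode the retinoid X receptors that pair with them. Their DNA methylation is described here in 5 libraries, for 6 of 21883 protein coding genes. The genes were taken as a named family that was selected on a measured value, the level at the 5′ end of the Rara gene model, which was known to differ strongly between the P5_a2iL_1 and P5_LCDM_1 libraries. That difference is therefore given as a description. Each gene was read in tiles of 1 kb along its body and in a window at either end that reached 1000 bp outwards and 500 bp inwards.

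Retinoic acid, made from vitamin A, enters the nucleus and binds a retinoic acid receptor that sits on DNA together with a retinoid X receptor. Without the ligand the pair recruits co-repressors, and with it co-activators, so that the same site can hold a gene down or turn it on. The pathway patterns the embryo along its axis and drives pluripotent cells to differentiate, and retinoid X receptors also pair with the thyroid hormone, vitamin D and fatty acid receptors.

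The libraries came from mice of the C57BL/6x129S6 background. The control was muscle, and the other 4 libraries were teratomas, tumours of mixed differentiated tissue, that arose after embryonic stem cells (ESCs) had been put into tetraploid embryos. Each teratoma is called by the culture condition of its stem cells (P5_2iL, P5_2iL_F, P5_a2iL_1 or P5_LCDM_1), and the labels spell out none of these names. Each group holds 1 library, so every difference below is between libraries and not between conditions, no test was possible, and a change within cells cannot be told apart from a change in the mix of cell types. Methylation was read by reduced representation bisulfite sequencing, which covers CpG-rich DNA, as the percent of reads methylated at each CpG cytosine.

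The files listed between 4017125 cytosines (muscle) and 5323090 cytosines (P5_2iL_F), and 3162868 were listed in all 5 libraries. These shared cytosines are the base of every level. The number of reads behind a cytosine is unknown, so no interval is given. The spread between the strands of a CpG, over 943786 CpGs, came to 15.9 percentage points for a single cytosine of the muscle library, while P5_2iL had 11.5, P5_2iL_F 11.6, P5_a2iL_1 14.6 and P5_LCDM_1 13.4. It leaves out animals and library preparations. As a check of the tissues, the gene-end windows of 9 measured skeletal muscle genes had a median level of 24.7% in muscle and from 62.5% to 84.2% in the teratomas, and 6 to 8 of them were 25 points or more higher in each teratoma and 0 lower. Medians of the other marker lists in muscle, P5_2iL, P5_2iL_F, P5_a2iL_1 and P5_LCDM_1 were 44.3, 23.9, 37.2, 35.7 and 51.9% for 4 blood genes. They were 24.4, 39.6, 43.4, 66.7 and 19.3% for 3 endothelial genes, 69.7, 82.6, 77.9, 56.7 and 57.4% for 3 epithelial genes, and 3.37, 4.81, 4.72, 6.32 and 3.81% for 4 neural genes. No marker window was at 0 in any library, and the part of cell types in the results below was not tested.

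Of the 6 genes, Rara lies at chr11:98927800-98974942 on the forward strand, Rarb at chr14:16430839-17082331 and Rarg at chr15:102234938-102257522 on the reverse strand, and Rxra at chr2:27676445-27763319, Rxrb at chr17:34031812-34038403 and Rxrg at chr1:167598362-167639623 on the forward strand (GRCm38.p6, the same build as mm10). They held 451, 337, 169, 381, 105 and 109 shared cytosines in that order, 1552 in all. At least 3 shared cytosines fell in 92 of their 863 tiles, so most of the family's DNA was not read.

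The promoter sequences below, the 250 bases before an annotated start (RefSeq, GRCm38.p6), show the DNA behind the levels that follow. The Rarb promoter is shown for its retinoic acid response element, a direct repeat with a spacer of 5 bases (DR5) through which retinoic acid receptors are known to raise Rarb itself; capitals mark the element. It covers chr14:16575477-16575726, reverse strand.
Rarb: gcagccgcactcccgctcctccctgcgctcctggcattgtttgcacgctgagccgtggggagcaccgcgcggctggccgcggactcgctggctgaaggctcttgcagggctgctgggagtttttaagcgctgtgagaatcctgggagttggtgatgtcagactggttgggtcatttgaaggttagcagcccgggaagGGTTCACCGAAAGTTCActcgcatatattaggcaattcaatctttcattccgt
The other sequences contrast the Rara promoter with the first and the internal Rxrg promoter. Capitals mark CpGs with a cytosine measured in all 5 libraries. In the Rara sequence these are 6 of 13 CpGs, and the measured cytosines were at 0% in every library. The sequences cover chr11:98937446-98937695, chr1:167598112-167598361 and chr1:167618015-167618264, all on the forward strand.
Rara: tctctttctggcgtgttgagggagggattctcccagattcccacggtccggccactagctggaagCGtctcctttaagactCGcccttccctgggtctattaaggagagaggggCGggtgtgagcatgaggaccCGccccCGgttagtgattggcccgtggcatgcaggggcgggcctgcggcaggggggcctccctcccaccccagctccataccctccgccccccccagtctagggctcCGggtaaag
Rxrg, first promoter: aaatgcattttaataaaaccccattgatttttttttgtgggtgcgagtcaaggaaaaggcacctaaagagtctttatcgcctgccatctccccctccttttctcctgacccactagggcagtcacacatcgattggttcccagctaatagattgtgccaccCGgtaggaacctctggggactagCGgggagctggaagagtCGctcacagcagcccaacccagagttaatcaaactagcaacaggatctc
Rxrg, internal promoter: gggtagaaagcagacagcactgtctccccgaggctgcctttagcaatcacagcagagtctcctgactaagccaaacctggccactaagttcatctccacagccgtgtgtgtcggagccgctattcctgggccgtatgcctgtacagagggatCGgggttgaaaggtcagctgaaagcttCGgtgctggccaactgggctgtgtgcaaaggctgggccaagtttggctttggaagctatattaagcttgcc

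Most of the measured promoters of the family had little methylation in any library, and an internal promoter of Rara and one of Rxrg had more. RefSeq gives 13 promoter windows of 300 bp (250 before to 50 after the start) for the 6 genes, and 10 held 3 or more shared cytosines. In 8 of these 10 (80%) the level was under 5% in all 5 libraries, against 69.7% of 12928 measured promoters of all genes, so low promoters were common.

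Both overlapping Rara windows at its first annotated promoter, with 20 and 23 shared cytosines, were at 0% in all 5 libraries. The 1 kb tile before them (chr11:98936001-98937000, 46 cytosines) had 6.55% in muscle, 23.8% in P5_2iL, 34.8% in P5_2iL_F, 26.4% in P5_a2iL_1 and 8.90% in P5_LCDM_1. The Rarg promoter (11 cytosines) lay between 0 and 1.30%, the Rxra promoter (16 cytosines) between 0 and 1.25%, and both Rxrb promoters (32 and 24 cytosines) between 0 and 0.781%. The first Rxrg promoter (19 cytosines) had 0% in muscle, 2.09% in P5_2iL, 2.16% in P5_2iL_F, 4.68% in P5_a2iL_1 and 3.41% in P5_LCDM_1. All of these promoters stayed under 5% in every library.

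At the Rarb promoter, 31 shared cytosines averaged 0.190% in muscle, 0.585% in P5_2iL, 0.943% in P5_2iL_F, 1.86% in P5_a2iL_1 and 3.99% in P5_LCDM_1. All levels were low, with muscle lowest and P5_LCDM_1 highest. In muscle 30 of the 31 cytosines were at 0%, and in P5_LCDM_1 22 were. The DR5 itself, 53 to 37 bases before the start, holds 1 CpG, of which 1 strand was measured: 0% in muscle, P5_2iL and P5_2iL_F, 4% in P5_a2iL_1 and 21.4% in P5_LCDM_1. The highest cytosine of the promoter in P5_LCDM_1, at 38.1%, lay outside the element, so the DR5 was not the only position with methylated reads. The motif GGTTCANNNNNAGTTCA was searched on both strands in the 300 bp windows and was found in 2 of 32851 promoters (0.00609%). The wider DR5 search, which includes that motif, found 32 (0.0974%), and among the 13 receptor windows only Rarb had a match. A match describes letters and is not evidence of binding.

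Both other promoters were methylated to some degree. An internal Rara promoter, 11911 bp from the 5′ end of the gene model, had 27.7% in muscle, 10.4% in P5_2iL, 2.94% in P5_2iL_F, 11.7% in P5_a2iL_1 and 6.22% in P5_LCDM_1 over 6 cytosines; muscle was highest. The internal Rxrg promoter, 19903 bp into the gene, had 35.7% in muscle, 77.8% in P5_2iL, 100% in P5_2iL_F, 75.6% in P5_a2iL_1 and 50% in P5_LCDM_1. Every teratoma was above muscle there, but only 3 cytosines were shared.

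**Figure D1:**
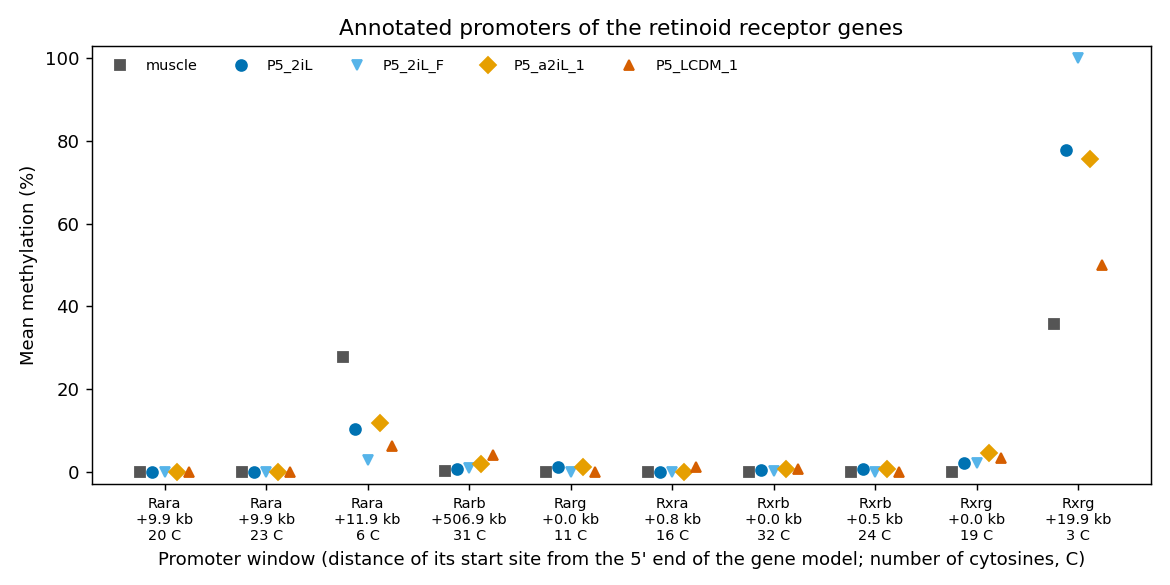
Mean methylation in percent (vertical axis) of the 10 measured RefSeq promoter windows of the 6 genes, with 1 point per library; the horizontal axis gives gene, distance of the start site from the 5′ end of the gene model and number of shared cytosines. All windows lie under 5% except the internal Rara window and the internal Rxrg window, which reaches 100% in P5_2iL_F.

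The largest difference at a gene end was at the 5′ end of the Rara gene model, which encodes the most widely expressed retinoic acid receptor. Its window (chr11:98926800-98928299) had 58.3% in muscle, 0% in P5_2iL, 12.5% in P5_2iL_F, 0% in P5_a2iL_1 and 68.2% in P5_LCDM_1. Muscle and P5_LCDM_1 were thus high and the remaining teratomas at 12.5% or below, with P5_LCDM_1 68.2 points above P5_a2iL_1, the difference for which the family was chosen.

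This window rests on 8 shared cytosines between 93 and 182 bp into the gene model, close enough to be read in the same fragments. In P5_LCDM_1, 6 of the 8 were above 50% and 2 were at 0%. In muscle 3 were above 50%, 1 was at 0%, and the median was 50%. All 8 were at 0% in P5_2iL and in P5_a2iL_1. Neighbouring cytosines repeat the same value, 90.9% at 157, 170 and 182 bp in P5_LCDM_1 and 28.6% at 125, 170 and 182 bp in P5_2iL_F, so the 8 cytosines may share reads and do not count as replicates. Over the 3 CpGs read on both strands, the strand means were 66.7 and 84.8% in P5_LCDM_1, 50 and 72.2% in muscle, 0 and 23.8% in P5_2iL_F, and 0% on both in P5_2iL and P5_a2iL_1. Each strand showed the same order of high and low libraries. These CpGs are among the 8 cytosines behind the difference for which the family was chosen, so this is not separate support for it. The 5′ end of the gene model is 9896 bp before the first annotated Rara promoter start, and the 8 cytosines lie in none of the RefSeq promoter windows used here.

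**Figure D2:**
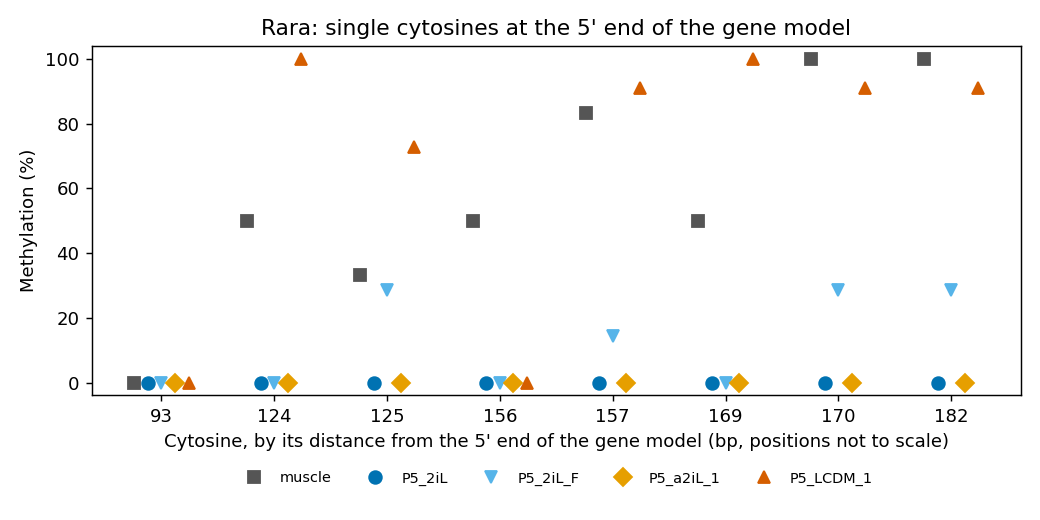
Methylation in percent (vertical axis) of the 8 shared cytosines at the 5′ end of the Rara gene model, ordered by distance in bp (horizontal axis, not to scale), with 1 point per library. P5_2iL and P5_a2iL_1 are at 0% at every cytosine, and 6 of 8 P5_LCDM_1 points are above 50%.

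Among 17092 gene-end windows with 5 or more shared cytosines, the 5 closest to this Rara window over the 5 libraries were at N4bp2l2, Eef1akmt2, Cep85, Fam83a and Ptpn18, with root mean square distances of 12.5, 13.7, 15.4, 15.9 and 16.0 points. The nearest, at N4bp2l2 (12 cytosines), had 71.5% in muscle, 6.14% in P5_2iL, 3.85% in P5_2iL_F, 12.8% in P5_a2iL_1 and 50% in P5_LCDM_1. Likeness here means only similar levels in the same 5 libraries.

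Of the 12 gene ends of the family, 8 held 3 or more shared cytosines; both Rarb ends and the 3′ ends of Rxra and Rxrg did not. A difference of 25 percentage points or more is called past the size rule below; it is a rule of size, not a test. Against muscle, 0 of 8 windows were higher in any teratoma, where 7.27% of 18340 gene ends were higher in P5_2iL, 6.92% in P5_2iL_F, 4.61% in P5_a2iL_1 and 4.81% in P5_LCDM_1. The Rara 5′ window was lower in P5_2iL, P5_2iL_F and P5_a2iL_1, and the Rarg 3′ window was also lower in P5_a2iL_1, which makes 1, 1, 2 and 0 of 8 lower in the 4 teratomas where 1.58, 1.41, 1.17 and 1.59% of all gene ends were. With 8 windows, 1 or 2 of them make a large share of the family. The difference between P5_a2iL_1 and P5_LCDM_1 at the Rara window was known when the family was chosen. All calls at that window rest on the same cytosines, also those of P5_2iL and P5_2iL_F against muscle. They are therefore description, and the backgrounds beside them do not show an excess. Between teratomas the only window past the rule was the Rara one: 1 of 8 in P5_LCDM_1 against P5_2iL (background 5.89% in either direction) and against P5_2iL_F (5.10%). In P5_LCDM_1 against P5_a2iL_1 it was also 1 of 8, higher, where 1.84% of all ends were higher and 2.25% lower; the choice of the family used this contrast. It was 0 of 8 in P5_2iL_F against P5_2iL (0.583%), P5_a2iL_1 against P5_2iL (3.99%) and P5_a2iL_1 against P5_2iL_F (3.10%).

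The 5′ windows of the other genes were low in every library. The Rxra 5′ window (70 cytosines) had 0.439% in muscle, 6.71% in P5_2iL, 8.73% in P5_2iL_F, 7.36% in P5_a2iL_1 and 7.21% in P5_LCDM_1. The 4 teratomas were close to each other there, and each was above muscle by less than 10 points. The 5′ windows of Rarg (46 cytosines), Rxrb (106) and Rxrg (43) lay between 0.906 and 2.83%, between 0.189 and 0.652%, and between 1.22 and 3.43%. The Rxrb window also covers the neighbouring gene Slc39a7. At the 3′ ends levels were higher. The Rarg 3′ window (8 cytosines) had 71.5% in muscle, 52.8% in P5_2iL, 48.5% in P5_2iL_F, 39.6% in P5_a2iL_1 and 63.5% in P5_LCDM_1, with P5_LCDM_1 nearest to muscle; the strands in muscle differed widely, with 45% on one and 100% on the other. The Rxrb 3′ window (52 cytosines), which overlaps Col11a2, had 15.9, 20.8, 24.6, 20.5 and 27.3% in the same order, and the Rara 3′ window (4 cytosines) had 75, 84.5, 98.1, 83.3 and 89.4%. Neither differed by 25 points in any pair.

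Over whole genes, the 1552 shared cytosines averaged 32.3% for muscle, 41.5% for P5_2iL, 41.4% for P5_2iL_F, 37.1% for P5_a2iL_1 and 36.1% for P5_LCDM_1, against 36.2, 42.3, 41.8, 39.97 and 39.1% over the cytosines of all protein coding genes. Muscle was lowest in both. Rxra, a widely expressed retinoid X receptor, had the widest range: muscle had 25.2%, P5_2iL 44.0%, P5_2iL_F 43.9%, P5_a2iL_1 34.1% and P5_LCDM_1 40.9%. Rxrb had the narrowest, from 11.02% in P5_a2iL_1 to 11.7% in P5_2iL. With 1 library per group there is no spread over samples against which neighbours in such an order could be separated.

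Differences from muscle inside the genes went mainly to higher levels in teratomas. Of the tiles higher in P5_2iL, 11 were in Rxra, 5 in Rara, 4 in Rxrg, 2 in Rarg and 0 in Rarb and Rxrb. Of the 92 tiles, 22 were higher and 3 lower in P5_2iL than in muscle, where 17.0% of 118848 tiles over protein coding genes were higher and 3.20% lower. In P5_2iL_F 21 were higher and 3 lower (backgrounds 15.8 and 3.00%). In P5_a2iL_1 16 were higher and 2 lower (11.2 and 2.72%), and in P5_LCDM_1 10 were higher and 6 lower (9.89 and 4.99%). As shares of the 92 tiles, the higher calls were 23.9% in P5_2iL and 10.9% in P5_LCDM_1, the latter near its background. With 25 points asked of each strand alone, P5_LCDM_1 had 6 tiles higher and 0 lower than muscle, of the 51 tiles with enough CpGs on both strands. These 4 comparisons share the muscle library.

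The family was not uniform. In the 36 tiles of the retinoid X receptor genes, 15 (41.7%) were higher than muscle in P5_2iL, 15 in P5_2iL_F, 10 (27.8%) in P5_a2iL_1 and 10 in P5_LCDM_1. In the 56 tiles of the retinoic acid receptor genes, 7 (12.5%) were higher in P5_2iL, 6 in P5_2iL_F, 6 in P5_a2iL_1 and 0 in P5_LCDM_1. Over all gene-body tiles the shares were 17.0, 15.8, 11.2 and 9.89% in the same order. The median difference from muscle in P5_2iL was 15.5 points in the former and 2.03 in the latter, beside 4.25 over all tiles. In P5_LCDM_1 the medians were 15.4 and -1.15 points, beside 0.40. By gene, the P5_LCDM_1 medians were 20.1 in Rxra, 0.47 in Rxrb, -0.18 in Rxrg, 1.82 in Rara, -11.0 in Rarb and 0.40 in Rarg. The higher median of the retinoid X receptor genes in P5_LCDM_1 thus did not hold in Rxrb or Rxrg. Tiles of 1 gene share a locus and are not replicates, and no test of the difference between the 2 classes was made.

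**Figure D3:**
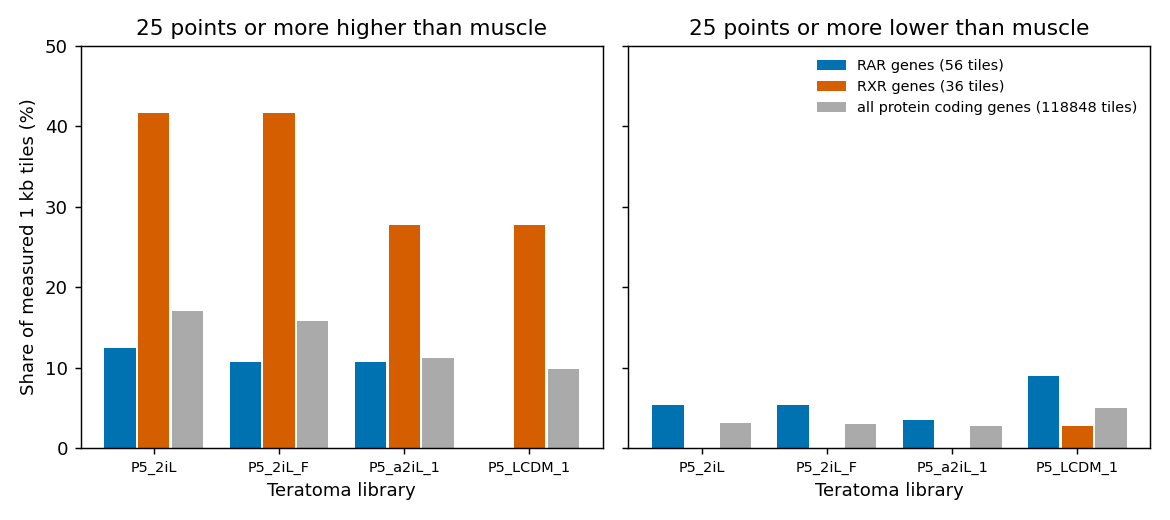
Share in percent (vertical axis) of measured 1 kb tiles that were 25 points or more higher (left) or lower (right) than muscle in each teratoma library, for the retinoic acid receptor genes (RAR), the retinoid X receptor genes (RXR) and all protein coding genes. The RXR bar stands at 41.7% for P5_2iL and the RAR bar at 12.5%, and in P5_LCDM_1 no RAR tile is higher.

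Rxra held 8 of the 10 tiles higher in P5_LCDM_1 and 11 of the 22 higher in P5_2iL. Of its 24 tiles, 15 were higher than muscle in at least 1 teratoma, 4 were higher in all 4, and 0 were lower in any. Over all gene-body tiles the shares were 20.7% higher in at least 1 teratoma, 6.01% higher in all 4 and 8.63% lower in at least 1. The first tile past the rule lay 3 kb into the gene, beyond the unmethylated promoter.

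The tile at chr2:27679001-27680000 had 0% in muscle, 94.2% in P5_2iL, 67.4% in P5_2iL_F, 61.9% in P5_a2iL_1 and 26.1% in P5_LCDM_1, over 4 cytosines. With medians in place of means, P5_LCDM_1 was only 20 points above muscle there, under the rule. The next tile (7 cytosines) had 7.94, 90.8, 82.0, 69.7 and 31.6% in the same order of libraries. Muscle was lowest and P5_LCDM_1 the lowest teratoma in both.

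In the following pair of tiles P5_LCDM_1 was not the lowest teratoma. The tile at chr2:27681001-27682000 (17 cytosines) had 31.8% in muscle, 91.8% in P5_2iL, 92.6% in P5_2iL_F, 55.1% in P5_a2iL_1 and 85.1% in P5_LCDM_1. Its neighbour (11 cytosines) had 34.7, 92.4, 84.7, 71.4 and 82.2%. Both placed P5_a2iL_1 between muscle and the other teratomas. In the tile at chr2:27684001-27685000 (10 cytosines), muscle stood apart at 31.7%, with 93.0% in P5_2iL, 96.0% in P5_2iL_F, 85.4% in P5_a2iL_1 and 78.1% in P5_LCDM_1. A tile 45 kb into the gene (chr2:27721001-27722000, 8 cytosines) repeated this: muscle had 28.1%, and the teratomas had 97.3, 96.0, 75.8 and 92.2%. Over the 2 CpGs read on both strands there, the strands of muscle were at 0 and 12.5%, and no teratoma strand was under 55%.

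**Figure D4:**
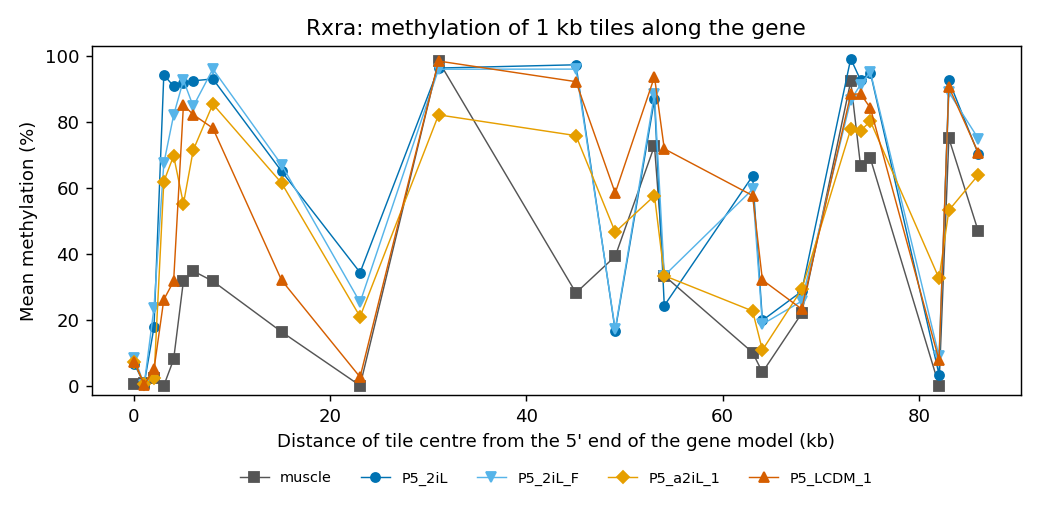
Mean methylation in percent (vertical axis) of the 24 measured 1 kb tiles of Rxra against distance of the tile centre from the 5′ end of the gene model in kb (horizontal axis), with 1 line per library that joins measured tiles only to guide the eye. Muscle stays at or below 34.7% between 3 and 8 kb, where P5_2iL is above 90%.

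Rxrg, the receptor of this class known from skeletal muscle and brain, was higher in all 4 teratomas in 2 of its 8 tiles, where 6.01% of all gene-body tiles were; 8 tiles are few to set against that share. At chr1:167603001-167604000 (3 cytosines) muscle had 35.2% and the teratomas 90.2% (P5_2iL), 92.2% (P5_2iL_F), 84.4% (P5_a2iL_1) and 77.3% (P5_LCDM_1). At chr1:167638001-167639000 (10 cytosines), near the 3′ end, muscle had 20.2% and the teratomas 81.0, 70.9, 59.0 and 54.7%. Muscle was lowest in both, and the windows of the skeletal muscle genes were likewise lower in muscle, with a median of 24.7%; a link between them was not tested.

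The tile at chr1:167620001-167621000 (14 cytosines) separated the teratomas instead: muscle had 42.0%, P5_2iL 71.8%, P5_2iL_F 73.4%, and levels were 53.4% in P5_a2iL_1 and 38.2% in P5_LCDM_1. The tile at 9 kb (6 cytosines) had 74.8, 64.4, 77.1, 53.0 and 51.3%. The tile at 11 kb (8 cytosines) had 93.8, 81.3, 82.9, 94.4 and 67.5%, and P5_LCDM_1 was lowest in all 3; with medians its difference from muscle at 11 kb was -10 points, under the rule. The remaining tile past the rule contains the internal promoter and the same 3 cytosines. Rxrb, which is expressed in most tissues, had none of its 4 tiles past the rule in any of the 10 pairs (34.8% of all gene-body tiles were past it in at least 1 pair): its first 2 tiles were at or under 1.06% in every library and the tile at 2.7 kb (12 cytosines) was between 95.0 and 98.2%.

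In Rara the tile counts hold both directions. Its first tile holds the same 8 cytosines as the 5′ window. Most of its other tiles past the rule lie in the last part of the gene. At chr11:98971001-98972000, the best covered of them with 54 cytosines, muscle had 49.95%, P5_2iL 92.7%, P5_2iL_F 92.9%, P5_a2iL_1 78.1% and P5_LCDM_1 74.6%. Over its 22 CpGs with both strands, the strand means were 50.7 and 43.9% in muscle and 93.2 and 93.7% in P5_2iL. Muscle was lowest on either strand.

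The tile at chr11:98967001-98968000 (8 cytosines) had 25.5% in muscle, 80.6% in P5_2iL, 73.7% in P5_2iL_F, 75% in P5_a2iL_1 and 48.8% in P5_LCDM_1. The tile at chr11:98970001-98971000 (3 cytosines) had 33.3, 83.3, 100, 100 and 50%. Its difference rests on those 3 cytosines: over the 10 listed in both libraries compared, P5_2iL was 20 points above muscle, under the rule, in place of 50, and P5_a2iL_1 26 points in place of 66.7. In these tiles P5_LCDM_1 lay between muscle and the other teratomas, and no Rara tile was past the rule upward in P5_LCDM_1 against muscle. In the tile at chr11:98969001-98970000 (16 cytosines), P5_a2iL_1 stood alone at 70.6%, beside muscle at 30.4%, P5_2iL at 41.0%, P5_2iL_F at 39.1% and P5_LCDM_1 at 28.4%. In the tile at chr11:98951001-98952000 (7 cytosines), P5_LCDM_1 was lowest at 17.1%, beside muscle at 42.9%, P5_2iL at 37.4%, P5_2iL_F at 36.3% and P5_a2iL_1 at 59.5%. P5_LCDM_1 was thus above P5_a2iL_1 in the first tile and below it in these tiles.

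**Figure D5:**
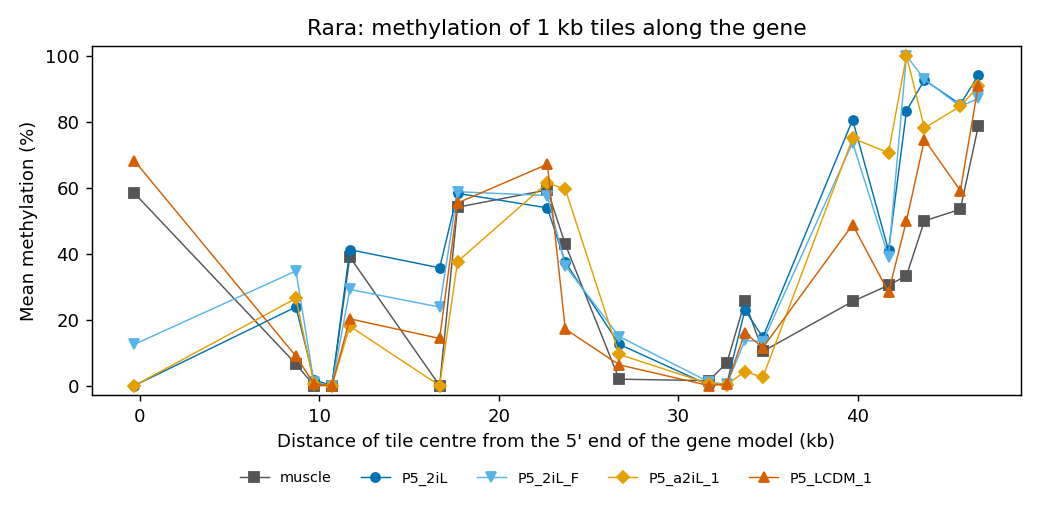
Mean methylation in percent (vertical axis) of the 20 measured 1 kb tiles of Rara against distance of the tile centre from the 5′ end of the gene model in kb (horizontal axis), with 1 line per library that joins measured tiles only to guide the eye. P5_LCDM_1 is highest in the first tile at 68.2%, and at 39.7 to 43.7 kb it lies below P5_2iL, P5_2iL_F and P5_a2iL_1 in each tile.

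Rarb, which is itself a target of retinoic acid, was read in only 24 of its 653 tiles. Of these 10 (41.7%) were at 75% or more in all 5 libraries, against 33.1% of all gene-body tiles, and both tiles at its promoter were at 13.9% or less. Against muscle 0 of 24 were higher in any teratoma (20.7% of all gene-body tiles were), and in P5_LCDM_1 0 were higher and 4 lower, where 9.89% of all tiles were higher and 4.99% lower. The median difference of P5_LCDM_1 from muscle was -11.03 points, with 19 of 24 tiles below 0. Over all gene-body tiles that median was 0.40 points, with 51602 of 118848 below 0. The tile at chr14:16688001-16689000 (6 cytosines) had 71.5% in muscle, 68.9% in P5_2iL, 64.5% in P5_2iL_F, 70.6% in P5_a2iL_1 and 35.7% in P5_LCDM_1. The tile at chr14:17031001-17032000 (4 cytosines) had 100, 89.3, 83.3, 82.5 and 50%. P5_LCDM_1 was lowest in both. The strands of the first disagreed in muscle (49.7 and 93.3%) while both were low in P5_LCDM_1 (38.1 and 33.3%).

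The same library was lowest at chr14:16687001-16688000 (11 cytosines), where muscle had 81.3%, P5_2iL 70.4%, P5_2iL_F 72.2%, P5_a2iL_1 65.0% and P5_LCDM_1 53.5%. It was also lowest at chr14:16860001-16861000 (4 cytosines), with 87.3, 94.7, 86.7, 85.0 and 63.4%, and at chr14:17064001-17065000 (8 cytosines), with 60.3, 82.8, 84.1, 75.7 and 46.5%. Of these, only the tile at 16687001 differed from muscle by 25 points or more in P5_LCDM_1, and with medians that difference was -21.4 points, under the rule. An exception was chr14:16532001-16533000 (4 cytosines), where P5_2iL (58.3%) and P5_2iL_F (70.8%) were low beside 100% in muscle and P5_a2iL_1 and 87.5% in P5_LCDM_1; with medians the difference of P5_2iL_F from muscle there was -16.7 points, under the rule. Over the whole Rarb gene model the mean was 54.8% in P5_LCDM_1 and between 60.02 and 61.5% in the other libraries. Its annotated promoter, which lies inside that model, was highest in P5_LCDM_1, at 3.99%.

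Rarg, the receptor prominent in skin and cartilage, had 3 of 12 tiles past the rule in any pair, a share below the 34.8% of all gene-body tiles. At chr15:102256001-102257000 (23 cytosines), 1 kb inside the 5′ end, P5_2iL (73.5%) and P5_2iL_F (66.5%) were high beside 42.5% in muscle, 42.3% in P5_a2iL_1 and 52.9% in P5_LCDM_1. At chr15:102240001-102241000 (4 cytosines), P5_2iL (75.4%), P5_2iL_F (80.8%) and P5_a2iL_1 (78.4%) were high beside 42.3% in muscle and 49.7% in P5_LCDM_1. At chr15:102235001-102236000 (12 cytosines), near the 3′ end, muscle was highest at 53.5%, with 19.7% in P5_2iL, 24.5% in P5_2iL_F, 16.2% in P5_a2iL_1 and 37.3% in P5_LCDM_1; with medians the difference of P5_2iL_F from muscle was -22.0 points, under the rule. In each of these tiles P5_LCDM_1 was nearer to muscle than P5_2iL was.

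Between teratomas, the P5_2iL and P5_2iL_F libraries were nearly alike: of the 92 tiles 0 were higher and 1 lower in P5_2iL_F, with backgrounds of 0.632 and 0.844%. P5_a2iL_1 had 4 tiles higher and 7 lower than P5_2iL (2.65 and 6.15%) and 3 higher and 4 lower than P5_2iL_F (2.25 and 4.79%). P5_LCDM_1 had 4 higher and 16 lower than P5_2iL (2.88 and 12.0%) and 3 higher and 13 lower than P5_2iL_F (2.71 and 10.5%). Lower calls outnumbered higher ones in P5_LCDM_1 in the family as over all genes. In P5_LCDM_1 against P5_a2iL_1, 6 tiles were higher and 14 lower, where 3.10% of all tiles were higher and 6.66% lower. This split was not stable: over the CpGs read on both strands it was 5 higher and 5 lower, and with 25 points asked of each strand alone 3 higher and 1 lower, of 51 tiles. For Rara, 1 higher and 5 lower, this contrast was known when the family was chosen. Of the others, Rxra had 5 higher and 3 lower, Rarb 0 and 3, Rarg 0 and 1, Rxrg 0 and 2, and Rxrb 0 and 0.

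A list of 53 other genes of the retinoid pathway was chosen with earlier results of these data known. The backgrounds beside its counts therefore do not show an excess. From it, 55 gene ends of 42 genes were read. Of these windows 8 were higher and 0 lower than muscle in P5_2iL, 8 and 0 in P5_2iL_F, 4 and 1 in P5_a2iL_1, and 8 and 0 in P5_LCDM_1, where 7.27, 6.92, 4.61 and 4.81% of all gene ends were higher. The median difference over the list was 0.28, 0.73, 0.72 and 2.12 points, beside 0.38, 0.34, 0.28 and 0.26 over all gene ends, so most windows of the list hardly differed. By role, P5_LCDM_1 was higher than muscle at 3 of 9 windows of synthesis and breakdown genes and 4 of 15 of response genes. The counts were 0 of 7 for binding and uptake genes, 0 of 9 for co-regulators and 1 of 15 for partner receptors. All 3 higher windows of synthesis and breakdown genes lie at Cyp26c1 and Cyp26a1, within chr19:37684112-37702536, and are not separate loci.

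Cyp26c1, an enzyme that breaks down retinoic acid, had at its lower-coordinate end (39 cytosines) 48.1% in muscle, 95.6% in P5_2iL, 95.7% in P5_2iL_F, 69.5% in P5_a2iL_1 and 85.1% in P5_LCDM_1. Cyp26a1, of the same enzyme family, had at its higher-coordinate end (7 cytosines) 43.7, 92.9, 81.6, 59.6 and 73.5%. At these ends both had muscle lowest and P5_a2iL_1 next. Their other ends, with more cytosines, did not repeat this. Cyp26c1 had at its higher-coordinate end (86 cytosines) 14.8, 13.0, 16.7, 14.6 and 41.9% in the same order of libraries. Cyp26a1 lay between 2.04 and 6.27% at its lower-coordinate end (71 cytosines). Cdx1, a homeobox gene that retinoic acid induces, had at its higher-coordinate end (100 cytosines) 10.9% in muscle, 65.0% in P5_2iL, 48.8% in P5_2iL_F, 36.0% in P5_a2iL_1 and 35.3% in P5_LCDM_1. Thra, a thyroid hormone receptor that pairs with retinoid X receptors, had at its higher-coordinate end (8 cytosines) 37.5, 79.2, 87.5, 87.5 and 95.8%. Muscle was lowest in both of these windows. At the lower-coordinate end of Thra (14 cytosines) levels lay between 0 and 1.85%, with muscle highest.

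In P5_LCDM_1 against P5_a2iL_1, 5 of the 55 windows were higher and 0 lower, where 1.84 and 2.25% of all gene ends were. With 5 or more cytosines asked of each window, 3 of 49 were higher and 0 lower. Nr2f2, an orphan nuclear receptor induced by retinoic acid, had at its lower-coordinate end (25 cytosines) 0% in muscle, 2.88% in P5_2iL, 3.08% in P5_2iL_F, 2.55% in P5_a2iL_1 and 58.0% in P5_LCDM_1. Hoxd4, a homeobox gene with a known retinoic acid response, had at its lower-coordinate end (8 cytosines) 14.4, 14.7, 10.7, 9.92 and 56.8%. In both P5_LCDM_1 stood alone. The other 3 of the 5 windows were at Hoxa4, Rbp4 (the plasma carrier of retinol) and Cyp26c1. The lower-coordinate ends of Hoxa4 (4 cytosines) and Rbp4 (3 cytosines) were 50 and 33.3 points higher. The higher-coordinate end of Cyp26c1 (86 cytosines) was 27.3 points higher. At their better covered higher-coordinate ends, Hoxa4 (77 cytosines) and Rbp4 (38 cytosines) differed by -3.48 and 2.97 points. In either direction, 0 windows were past the rule in P5_2iL_F against P5_2iL, 6 in P5_a2iL_1 and 7 in P5_LCDM_1 against P5_2iL, and 5 each in P5_a2iL_1 and P5_LCDM_1 against P5_2iL_F (backgrounds 0.583, 3.99, 5.89, 3.10 and 5.10% of all gene ends).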

How the data were processed

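DNA methylation of 5 libraries (muscle and 4 teratomas, 1 per group by the labels) was used. The deposited files give methylation in percent per CpG cytosine, strands on separate lines, with no read count; Trim Galore 0.6.4 and Bismark (version not given in the sources used here) and the build mm10 are named in the submitters' processing notes. Nor is a coverage minimum. The labels' protocols describe PCR amplification and gel selection of fragments, and copies of 1 molecule cannot be recognised. Positions were taken as counted from 1, since all of 492052 promoter cytosines (100%) then fell on a CpG and 56.2% otherwise.

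Levels are unweighted means over cytosines listed in all 5 libraries, with 3 or more per window, and a difference of 25 percentage points was called. Windows came from RefSeq genes and promoters of GRCm38.p6. The planned Fisher test was not run because it needs reads. The spread between strands is the root mean square difference of the strands over the square root of 2. The members and gene lists were chosen with earlier results of these data known. Named were all 6 genes with both ends, at most 6 tiles per gene past the rule with the widest range, at most 4 pathway windows per comparison with the largest difference, and the 5 windows most like Rara; a named window may be described for fewer comparisons than selected it, and Rarres2, Crabp1 and some others of the pathway are counted only. Marker windows are the gene end with more shared cytosines. The code ran under Python 3.11.15 with pandas 2.3.3, NumPy 2.4.6 and matplotlib 3.10.9 and was tested on simulated data. Alternatives were other cytosine sets and minimums, 40 points, medians, both-strand CpGs, a moved grid, shorter windows and, added after seeing the data, each strand alone.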

Additional observations from a re-analysis of the deposited data

Results flagged for a closer look

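In 6 of the family's 92 tiles a teratoma lay at least 10 points above muscle and another at least 10 points below it. The share of all gene-body tiles with this pattern was not computed, so the 6 cannot be called many or few. The 6 tiles share the muscle library, and the difference between the teratomas, given next for each, was not tested. At Rara, chr11:98951001-98952000, P5_a2iL_1 was 42.4 points above P5_LCDM_1; the only CpG read on both strands had 66.7 and 0% in P5_a2iL_1. At Rarb, chr14:17006001-17007000 (7 cytosines), P5_2iL was 27.6 points above P5_LCDM_1, with 91.8 and 64.3% beside 76.2% in muscle, and no CpG was read on both strands. At Rarb, chr14:17064001-17065000, P5_2iL_F was 37.6 points above P5_LCDM_1, with the same order around muscle on both strands. At Rxra, chr2:27725001-27726000 (10 cytosines), P5_LCDM_1 was 41.8 points above P5_2iL, with 58.4 and 16.6% beside 39.2% in muscle. The strands of muscle disagreed (84.6 and 6.25% over 4 CpGs), and on neither strand was one teratoma above and the other below muscle: P5_LCDM_1 had 59.9 and 54.1% and P5_2iL 2.63 and 6.94%. At Rxra, chr2:27729001-27730000 (11 cytosines), P5_LCDM_1 was 36.1 points above P5_a2iL_1, with 93.7 and 57.6% beside 72.7%, and with the same order around muscle on both strands over 4 CpGs, although on the second strand P5_a2iL_1 (47.2%) was close to muscle (50%). At Rxra, chr2:27759001-27760000 (22 cytosines), P5_2iL was 39.4 points above P5_a2iL_1, with 92.5 and 53.2% beside 75%. It rests on 1 strand: over 10 CpGs P5_a2iL_1 had 24.0% on the first strand and 84.1% on the second, where muscle had 80% and P5_2iL 95.9%.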

How the results depend on the processing

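No paired analysis was possible because each group holds 1 library. Unknown read depth and few cytosines per window limit every value, and 92 of 863 tiles were measured. No called difference from muscle at a named receptor window changed sign with medians, both-strand CpGs or cytosines listed in both libraries; named windows were not recomputed between teratomas (except the Rara window), nor for the pathway. Counts are given in the order P5_2iL, P5_2iL_F, P5_a2iL_1 and P5_LCDM_1 against muscle; P5_2iL_F, P5_a2iL_1 and P5_LCDM_1 against P5_2iL; P5_a2iL_1 and P5_LCDM_1 against P5_2iL_F; and P5_LCDM_1 against P5_a2iL_1. At 40 points the tile counts were 16, 15, 10, 7, 0, 2, 5, 0, 6 and 4, from 25, 24, 18, 16, 1, 11, 20, 7, 16 and 20. With 25 points required on each strand alone, an alternative chosen after seeing the data, they were 15, 15, 9, 6, 0, 5, 7, 2, 5 and 4, of the 51 tiles with enough CpGs on both strands.

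Other settings moved some tile counts by over 1.5 times. Over CpGs with both strands (51 tiles) they were 11 (P5_a2iL_1 against muscle), 0 (P5_2iL_F against P5_2iL), 7 (P5_a2iL_1 against P5_2iL), 9 (P5_LCDM_1 against P5_2iL), 10 (P5_LCDM_1 against P5_2iL_F) and 10 (P5_LCDM_1 against P5_a2iL_1). With 5 cytosines per tile (73 tiles), P5_2iL_F and P5_LCDM_1 against P5_2iL gave 0 and 12, and P5_LCDM_1 against P5_2iL_F gave 10. Medians gave 32 for P5_a2iL_1 against muscle (24 higher and 8 lower, from 16 and 2), 3 for P5_2iL_F against P5_2iL and 14 for P5_a2iL_1 against P5_2iL_F. A grid moved by 500 bp gave 3 for P5_2iL_F against P5_2iL and 12 for P5_a2iL_1 against P5_2iL_F, and cytosines listed in both libraries gave 3 for the former. The cause of these moves was not tested.

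Of the 8 gene-end windows, medians put 2, 2 and 1 past the rule in P5_2iL, P5_2iL_F and P5_LCDM_1 against muscle and 2 in P5_LCDM_1 against P5_a2iL_1. Cytosines listed in both libraries put 1, 1 and 2 in P5_LCDM_1 against muscle, P5_a2iL_1 against P5_2iL_F and P5_LCDM_1 against P5_a2iL_1, and P5_a2iL_1 against muscle had 1 at 40 points and over both-strand CpGs. The Rara difference between P5_LCDM_1 and P5_a2iL_1 was 90.9 points with medians and 75.8 points over both-strand CpGs. For the pathway windows, 40 points left 4, 2 and 4 in P5_2iL_F, P5_a2iL_1 and P5_LCDM_1 against muscle, 1 and 2 in P5_a2iL_1 and P5_LCDM_1 against P5_2iL, 1 and 2 against P5_2iL_F, and 3 in P5_LCDM_1 against P5_a2iL_1. With 5 cytosines (49 windows) P5_a2iL_1 against muscle had 2, P5_a2iL_1 and P5_LCDM_1 had 3 and 4 against P5_2iL and 2 and 3 against P5_2iL_F, and P5_LCDM_1 against P5_a2iL_1 had 3. Cytosines listed in both libraries left 3 in P5_LCDM_1 against P5_2iL_F. Of the differences from muscle at named receptor windows, medians moved 56 by more than the strand spread of their means and kept 84 within it, both-strand CpGs moved 11 and kept 65, and cytosines listed in both libraries moved 9 and kept 131.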
